A study of Mus musculus with 12 samples.

Results

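The rows described here are the microRNA genes, other than those of the miR-181 family, in 2 count tables from mouse thymocytes, 1 of RNA-seq and 1 of ribosome footprints. A row was taken when its gene symbol began with Mir and a number or with Mirlet7, did not name a host gene, was no Mir181 row, and had at least 10 reads summed over both tables. Of 55335 gene rows, 1174 carried such a name, and 233 of these reached the minimum. Of the others, 702 had 0 reads and 239 had 1 to 9 reads. Just inside the minimum lay 24 rows with 10 or 11 reads, and just outside it 28 rows with 8 or 9. The thymocytes came from 6-week-old mice, 3 wild type (WT) and 3 knockout (KO) for miR-181a/b-1, the pair of genes whose product tunes T cell receptor signalling in developing T cells. All cells, WT and KO alike, were placed in buffer with cycloheximide, a drug that holds ribosomes on the mRNA, and both assays were prepared with 1 commercial kit for ribosome profiling. There were 3 libraries in each of 4 groups. The labels do not say whether the KO deletion was present in all cells of the mice, nor which libraries of the 2 assays share a mouse.

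A microRNA gene is transcribed as a long primary transcript, often as the intron of a host gene. Drosha cuts a hairpin out of it, Dicer1 trims the hairpin to a short duplex, and an Argonaute protein keeps the mature strand, which pairs with mRNAs mainly through its seed, the bases just behind its 5′ end. miR-142 is made in blood cells of all lineages, the miR-15 and miR-16 family restrains genes of survival and cell division, and miR-150 and miR-342 are known from lymphocytes. A count in a microRNA row is the number of reads that lay on the annotated hairpin gene. The deposited counts give neither read lengths nor positions, so reads of a primary transcript, of a hairpin and of a mature microRNA cannot be told apart, in either assay.

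RefSeq (GRCm38.p6) held a mature sequence for 208 of the 233 rows, 349 sequences of 18 to 26 bases with a median of 22. They are shown first for the 6 rows that held most footprint reads, 5′ to 3′, with the seed (bases 2 to 8) in capitals. Mir15a and Mir16-1 share the seed AGCAGCA.

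miR-142a-5p (Mir142): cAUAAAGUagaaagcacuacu

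miR-142a-3p (Mir142): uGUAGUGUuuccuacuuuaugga

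miR-15a-5p (Mir15a): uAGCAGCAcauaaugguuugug

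miR-16-5p (Mir16-1 and Mir16-2): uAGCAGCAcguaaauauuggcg

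miR-128-3p (Mir128-2): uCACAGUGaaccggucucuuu

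miR-30c-5p (Mir30c-1): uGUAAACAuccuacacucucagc

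miR-26a-5p (Mir26a-1 and Mir26a-2): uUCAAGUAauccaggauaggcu

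The next 5 belong to rows that are compared between genotypes or assays in the text. miR-15b-5p has the same seed as miR-15a and miR-16.

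miR-15b-5p (Mir15b): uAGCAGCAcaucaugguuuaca

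miR-342-3p (Mir342): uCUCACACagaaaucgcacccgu

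miR-1955-5p (Mir1955): aGUCCCAGgaugcacugcagcuuuu

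miR-706 (Mir706): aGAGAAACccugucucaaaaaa

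miR-1931 (Mir1931): aUGCAAGGgcuggugcgauggc

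Some of these sequences stand at more than 1 place in the genome. The mature sequence of miR-16-5p is encoded by Mir16-1 and by Mir16-2, and that of miR-26a-5p by Mir26a-1 and Mir26a-2. That of miR-128-3p is encoded by Mir128-1 and Mir128-2, and that of miR-30c-5p by Mir30c-1 and Mir30c-2. In all, 19 of the 233 rows have a mature sequence that is found at another locus. Reads with several alignments were set apart from the counts. They made up 17.7% to 18.6% of footprint reads and 13.1% to 20.5% of RNA-seq reads. A read that fitted more than 1 copy alike is therefore in the count of none of them. The counts of these rows are uncertain, since they can lack reads of the shared mature sequence. How such reads divided between copies is not known.

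Before the rows were compared, the labels and the libraries were checked. The targeted gene Mir181a-1 had 132.3 to 165.5 CPM (counts of a row per 1000000 reads in genes, after scaling by TMM factors) in the 3 WT footprint libraries and 0.463 to 1.04 CPM in the 3 KO ones. In RNA-seq its levels overlapped, with 57 reads in WT and 67 in KO, 41 of the latter in KO replicate 3. What these KO reads stem from was not tested. Mir181b-1 had 0 reads in all 12 libraries. Neither row of the targeted pair therefore checks the RNA-seq labels, and WT and KO in RNA-seq mean the libraries labelled so. All 12 thymocyte mRNA markers looked for, among them Cd3e, Cd4, Cd8a and Rag1, were detected, with a summed level of 12384 to 22510 CPM per library. The libraries held 4479182 to 8180286 reads in genes in RNA-seq and 4069968 to 17859770 in footprints. WT and KO libraries with the same replicate number deviated from their group means in opposite directions, with correlations of -0.979 to -0.992 across the 8586 genes of RNA-seq and 7735 of footprints that had at least 50 reads in each library. The authors call the deposited counts adjusted without saying for what. Adjusted p values from fits without the replicate number may therefore be too small, which was not tested. When the replicate number was entered as a block, none of the calls between genotypes given for a microRNA row was kept. The adjusted p with the block is printed beside each.

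The 233 rows held 58030 footprint reads and 8030 RNA-seq reads, and a few rows held most of them. Mir142 held 40.6% of the footprint reads of all 233 rows. Together with Mir15a, Mir128-2 and Mir16-1 it held 76.0%, and the 6 highest rows, which add Mir30c-1 and Mir26a-2, held 82.3%. In RNA-seq the reads were spread more widely: Mir142 held 20.2%, and the 4 highest rows, Mir142, Mir1931, Mir15a and Mir128-2, held 33.2%. Thus 30 rows had at least 100 footprint reads and 14 had at least 100 RNA-seq reads, while 33 rows had at least 1 read in each of the 12 libraries. There were 17 rows with 0 footprint reads and 12 with 0 RNA-seq reads. For a row with 0 reads over a group of 3 libraries, 3 counts set the limit, which is 0.0652 CPM in WT footprints, 0.0990 in KO footprints, 0.144 in WT RNA-seq and 0.157 in KO RNA-seq. These limits cover counting error only.

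**Figure D1:**
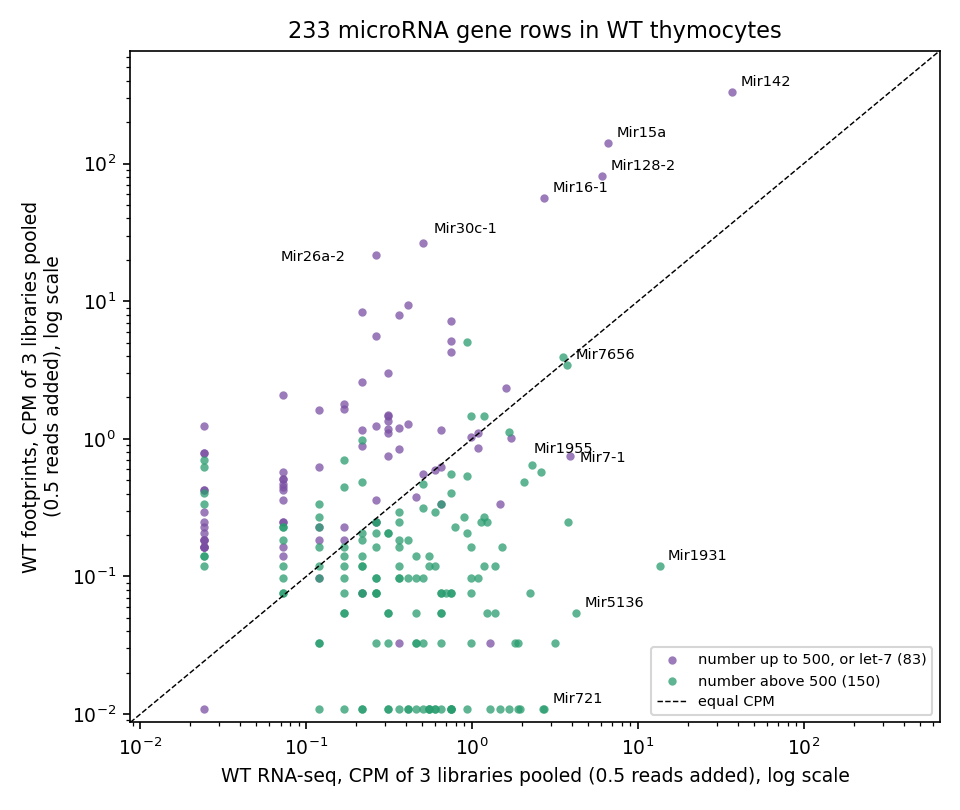
Level of each of the 233 microRNA gene rows in WT RNA-seq (horizontal, CPM, log scale) and WT footprints (vertical, CPM, log scale), with 3 libraries pooled per assay and 0.5 reads added. Colours separate rows with a microRNA number up to 500 or let-7 (83 rows) from those with a number above 500 (150 rows). Mir142, Mir15a, Mir128-2 and Mir16-1 stand above the line of equal CPM, and Mir1931, Mir5136 and Mir721 far below it.

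Mir142 lies outside protein-coding and lncRNA genes in RefSeq, with its 5p arm at chr11:87756867-87756887 on the plus strand. It was the highest of the 233 rows in every one of the 12 libraries. Its footprint level was 356, 305 and 332 CPM in WT replicates 1 to 3 and 252, 293 and 270 CPM in KO. All 3 KO libraries lay below all 3 WT libraries. The means were 331 ± 25.1 CPM in WT against 272 ± 20.8 CPM in KO (SD, n = 3), a log2 fold change of -0.28 (SE 0.08) with an adjusted p of 0.0511 by edgeR's quasi-likelihood test, which just missed the threshold of 0.05. With DESeq2 the adjusted p was 0.0161, and over all alternatives it ranged from 0.0161 to 0.188, the highest value with the block. In RNA-seq the same row had 32.5, 37.0 and 40.8 CPM in WT and 50.3, 45.1 and 39.9 CPM in KO. These ranges overlapped, and the log2 fold change was 0.29 (SE 0.12, edgeR adjusted p 0.203). The change in footprints beyond that in RNA was -0.57 (SE 0.14) with an adjusted p of 0.117 by edgeR's interaction test. The row Mir142b overlaps Mir142 in RefSeq and had 0 reads in all 12 libraries. The host row Mir142hg had 73.8 CPM in WT against 87.3 CPM in KO RNA-seq and 24.4 and 38.5 CPM in footprints, and neither difference passed the test (edgeR adjusted p 0.0886 and 0.152).

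Mir15a and Mir16-1 lie side by side in the noncoding RNA gene Dleu2, the former with its 5p arm at chr14:61632075-61632096 and the latter at chr14:61631936-61631957, both on the minus strand. Mir15a had the second highest footprint level in each of the 6 footprint libraries, with 129, 132 and 175 CPM in WT and 127, 124 and 89.4 CPM in KO. The KO libraries lay below the WT ones by a narrow margin, and the log2 fold change of -0.32 (SE 0.16) did not pass the test (edgeR adjusted p 0.231). Mir16-1 had 52.8, 53.1 and 65.5 CPM in WT footprints and 71.0, 70.5 and 55.6 CPM in KO, which overlap. Footprint CPM exceeded RNA-seq CPM in both rows and both genotypes: the log2 ratio of pooled CPM was 4.41 in WT and 4.13 in KO for Mir15a, and 4.36 and 5.38 for Mir16-1. Dleu2 itself had 328 ± 47.3 CPM in WT RNA-seq and 22.0 ± 2.52 CPM in WT footprints (SD, n = 3), and it was not called in either assay.

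Mir128-2, inside Arpp21, had 100.2, 72.6 and 63.2 CPM in WT footprints and 49.9, 75.4 and 84.5 CPM in KO. The groups overlapped (log2 fold change -0.21, SE 0.24, edgeR adjusted p 0.595). Its mature sequence is shared with Mir128-1, in R3hdm1, which had only 38 footprint reads and 29 RNA-seq reads. Mir30c-1, in Nfyc, had 23.3, 27.4 and 29.7 CPM in WT footprints and 25.2, 21.6 and 19.4 CPM in KO. Mir26a-2, in the phosphatase gene Ctdsp2, had 22.3, 19.6 and 24.7 CPM in WT and 23.3, 26.1 and 20.1 CPM in KO. Both overlapped between genotypes, and both were nearly absent from RNA-seq, with 15 and 8 reads over 6 libraries. Mir16-2, the second copy of miR-16 and a neighbour of Mir15b in Smc4, had 6.17, 9.27 and 8.42 CPM in WT footprints and 14.8, 10.2 and 11.02 CPM in KO. The KO libraries of Mir16-2 lay above the WT ones, with a log2 fold change of 0.61 (SE 0.21) that did not pass the test (edgeR adjusted p 0.0917, and between 0.0193 and 0.228 over the alternatives). Mir30b had 633 footprint reads and 7 RNA-seq reads, and its KO libraries, at 4.17 to 10.8 CPM, spanned the WT range of 6.36 to 11.3 CPM almost whole.

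**Figure D2:**
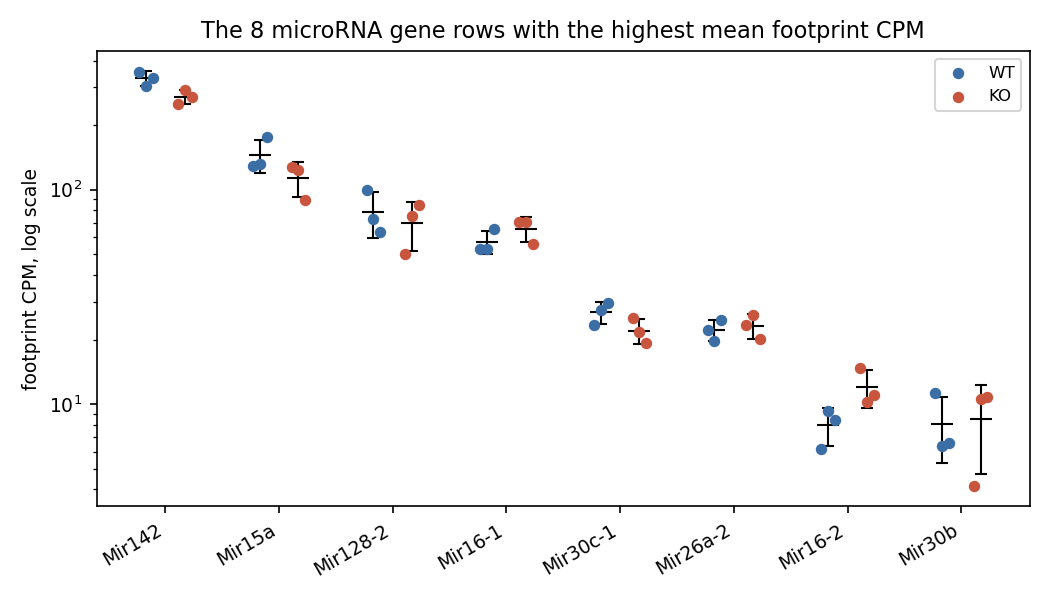
Footprint CPM (vertical, log scale) of the 8 rows with the highest mean in footprints. Points are the 3 libraries of each genotype, horizontal bars the means and error bars the SD. The KO libraries of Mir142 and Mir15a lie below and those of Mir16-2 above the WT libraries, and the other 5 rows overlap.

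A CPM does not allow for the length of a row. Per kilobase of the RefSeq hairpin, which was given for 193 rows of 51 to 139 bases, the mean WT footprint level was 5169 CPM for Mir142, 1035 for Mir128-2, 615 for Mir16-1, 301 for Mir30c-1 and 264 for Mir26a-2, so this order was that of the CPM values. No hairpin length was given for Mir15a. In WT RNA-seq the highest levels per kilobase were 574 CPM for Mir142, 114 for Mir1931 and 80.3 for Mir128-2.

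Summed over all 233 rows, the footprint level was 818.5, 744.5 and 818.2 CPM in WT and 685.2, 747.3 and 680.7 CPM in KO. The KO replicate 2 library lay inside the WT range. Without the 4 highest rows the sum was 181.0 to 185.5 CPM in all 6 footprint libraries, so the differences between libraries in the sum were those of Mir142, Mir15a, Mir128-2 and Mir16-1. In RNA-seq the sum over all rows was 181.7 to 212.7 CPM in WT and 188.3 to 228.9 CPM in KO.

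Rows that share a seed can be summed. The 208 rows with a mature sequence had 308 different seeds, of which 28 occurred in at least 2 rows and took in 55 rows. The seed AGCAGCA joined Mir15a, Mir15b, Mir16-1, Mir16-2 and Mir322. These 5 rows together had 188.8, 196.2 and 249.9 CPM in WT footprints and 215.4, 207.0 and 160.2 CPM in KO, which overlap, while Mir15a was lower and Mir15b higher in every KO library than in every WT library. The miR-30 seed GUAAACA, in Mir30a, Mir30c-1 and Mir30e, summed to 31.5 ± 4.30 CPM in WT against 25.6 ± 4.38 CPM in KO footprints (SD, n = 3). Mir30b, with 633 footprint reads, had no mature sequence in the table and is not in this sum. The miR-26 seed UCAAGUA, in Mir26a-1, Mir26a-2 and Mir26b, summed to 24.0 ± 2.54 and 26.0 ± 2.91 CPM. The let-7 seed GAGGUAG, in Mir98 and 4 let-7 rows, summed to 8.27 ± 1.54 and 8.30 ± 1.38 CPM. In each of these families 1 row held most of the reads, as Mirlet7g did with 531 of the 642 footprint reads of its seed.

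Rows of related microRNAs differed in whether any read was counted. The miR-17 microRNAs, which promote lymphocyte division, stand in 3 clusters, and of their 15 rows 7 were among the 233 and 8 had 0 reads. The rows at 0 were all 6 of the cluster within Mir17hg, namely Mir17, Mir18, Mir19a, Mir20a, Mir19b-1 and Mir92-1, and Mir93 and Mir25 beside Mir106b. The host row Mir17hg had 37.4 CPM in WT RNA-seq and 3.43 CPM in WT footprints. Reads that lay on more than 1 gene were left out of the counts, so a 0 does not show that a microRNA was absent. In the X-linked cluster, by contrast, all 6 rows were counted. Its Mir20b had 3.48, 6.92 and 6.62 CPM in WT footprints and 12.5, 7.19 and 7.35 CPM in KO. The KO libraries lay above the WT ones, and the log2 fold change of 0.71 (SE 0.33) did not pass the test (edgeR adjusted p 0.189). The other 5 rows of that cluster, Mir106a, Mir18b, Mir19b-2, Mir92-2 and Mir363, had 20 to 124 footprint reads each, and Mir106b, in Mcm7, had 113.

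Of 11 let-7 rows, 4 were among the 233 and 6 had 0 reads. Mirlet7f-2 had 52 footprint reads and Mirlet7e had 10. Mirlet7g, in Wdr82, led them with 8.68, 5.75 and 7.19 CPM in WT footprints and 4.91, 7.78 and 6.61 CPM in KO, which overlap. Mirlet7c-1 had 0 RNA-seq reads and 3, 5 and 0 footprint reads in WT against 6, 7 and 4 in KO. It was below the minimum for testing. Its host row Mir99ahg, a noncoding gene that also carries Mir99a and Mir125b-2, had 1.17 CPM in WT against 4.29 CPM in KO RNA-seq, a log2 fold change of 1.89 (SE 0.22, edgeR adjusted p 0.00721, and 0.0574 with the block).

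A list of 36 microRNAs known from lymphocytes was compared with the table. It had 35 rows, of which 23 were among the 233 and 11 had 0 reads, and these 23 rows held 50843 of the 58030 footprint reads. They took 12 of the 20 highest places in footprints. The list was chosen with earlier results of these data known, so this share and these places depend on its choice and carry no test. The 6 rows with most footprint reads, Mir142, Mir15a, Mir128-2, Mir16-1, Mir30c-1 and Mir26a-2, are all on it. Mir142 alone held 23546 of the 50843 reads. Mir23a, Mir24-2 and Mir27a, 3 microRNAs of 1 cluster, had 0.855, 2.64 and 1.53 CPM in WT against 0.666, 3.497 and 2.76 CPM in KO footprints, and none of the 3 passed the test (edgeR adjusted p 0.339, 0.103 and 0.318). Mir23b, of a second cluster, had 400 footprint reads and was not called (log2 fold change 0.16, SE 0.24, edgeR adjusted p 0.688). Mir221 and Mir29a had 15 and 9 footprint reads and were too sparse to be tested. Mir150, a microRNA of mature lymphocytes, had 0.726 to 1.26 CPM in WT footprints and 0.648 to 1.23 CPM in KO. The 11 rows at 0 included Mir155, Mir21a and Mir191. Mir155hg, the host of Mir155, had 2.71 CPM in WT RNA-seq. No row had the symbol Mir146a, and a row named Mir146, whose mature sequence RefSeq gives as miR-146a, had 15 reads, all in footprints.

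The rows listed for muscle, liver, neurons, myeloid cells and endothelium had 0 reads. A count of 0 was not particular to them, since 11 of 35 lymphocyte rows, 8 of 15 miR-17 rows and 6 of 11 let-7 rows were also at 0. Reads that lay on more than 1 gene were set apart too, and made up 1.38% to 1.68% of RNA-seq and 2.98% to 3.65% of footprint reads. Of 7 epithelial rows only Mir200a was among the 233, and 20 of its 27 footprint reads came from WT replicate 2. Below the minimum, the epithelial rows Mir200b, Mir200c and Mir203 had 4, 1 and 3 footprint reads. Of the mesenchyme rows, Mir143 had 1 RNA-seq read and 1 footprint read, and Mir145a had 2 footprint reads. Mir451a, a microRNA of red cells, had 17 reads, all in footprints.

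Footprint and RNA-seq levels of the same row differed widely, in either direction. The log2 ratio of footprint CPM to RNA-seq CPM, from reads pooled over the 3 WT libraries of each assay with 0.5 reads added, was computed for the 109 rows with at least 20 WT reads. The assays were separate tables, so the ratio is a description and was not tested. Its median was 0.13, against -0.26 over 17363 other genes with at least 20 WT reads, but the rows spread more widely. The sets were not matched for depth. A ratio above 2 was found for 36.7% of the rows and 7.83% of the other genes, and one below -2 for 30.3% and 19.3%. The median over the rows ranged from -0.10 to 0.66 when each WT footprint library was set against each WT RNA-seq library. It also moved with the minimum count, to -0.33 at 10 reads and 2.10 at 50 reads. In KO the median was -0.16 over 83 rows. Among 78 rows with at least 20 reads in both genotypes, 73 had a ratio on the same side of 0 in WT and KO, 23 of 29 rows above 2 in WT were also above 2 in KO, and 25 of 27 below -2 were also below -2 in KO.

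At the high end stood Mir26a-2 (6.37), Mir30c-1 (5.71), Mir29b-1 (5.70), Mir30b (5.26) and Mir500 (5.04), each with between 0 and 10 RNA-seq reads in WT. Mir29b-1 and Mir500 had 0, so their ratios rest on the 0.5 reads added. At the low end stood Mir721 (-7.97), Mir8091 (-7.94), Mir703 (-7.49), Mir6374 (-7.45) and Mir6387 (-7.25), each with 0 WT footprint reads, so their ratios rest on the 0.5 reads added. Mir721, in Cux1, had 18, 18 and 20 RNA-seq reads in WT, 18, 13 and 22 in KO, and none in 6 footprint libraries. Mir1931, in Cdk17, was the second highest row in all 6 RNA-seq libraries, with 13.5, 13.3 and 13.7 CPM in WT and 12.1, 12.3 and 11.9 CPM in KO. It had 6 reads in all footprint libraries against 512 in RNA-seq. All 3 KO libraries of Mir1931 lay below the WT ones in RNA-seq, and the log2 fold change of -0.16 (SE 0.07) did not pass the test (edgeR adjusted p 0.446). Mir5136, on the strand opposite to Lbhd1, had 191 RNA-seq reads and 3 footprint reads. Since the strand setting of the counting is not given in the sources used here, reads of Lbhd1 and of Mir5136 cannot be told apart.

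The ratio went with the number in the microRNA's name, which follows the order in which microRNAs were registered. This split was chosen after the values were seen and carries no test. Of 56 rows with a number up to 500 or a let-7 name, 47 had a ratio above 0, and their median was 2.47. Of 53 rows with a higher number, 10 had a ratio above 0, and their median was -2.18. Rows inside a gene on its strand are a part of the same rows. Among them the median was 2.40 for 32 rows with a low number and -2.15 for 42 rows with a high one. Since rows entered by reads summed over both assays, a row could enter through 1 assay alone. Rows that RefSeq places outside protein-coding and lncRNA genes all had ratios above 0, 16 of 16 with a median of 2.99. Mir142 is among the 16, although the count tables hold a host row for it, Mir142hg. Of the 16, 15 have a low number. Exceptions occurred in both directions. Mir7-1, a low number inside Hnrnpk, had a ratio of -2.37, and Mir652, a high number inside Tmem164, had one of 2.43.

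**Figure D3:**
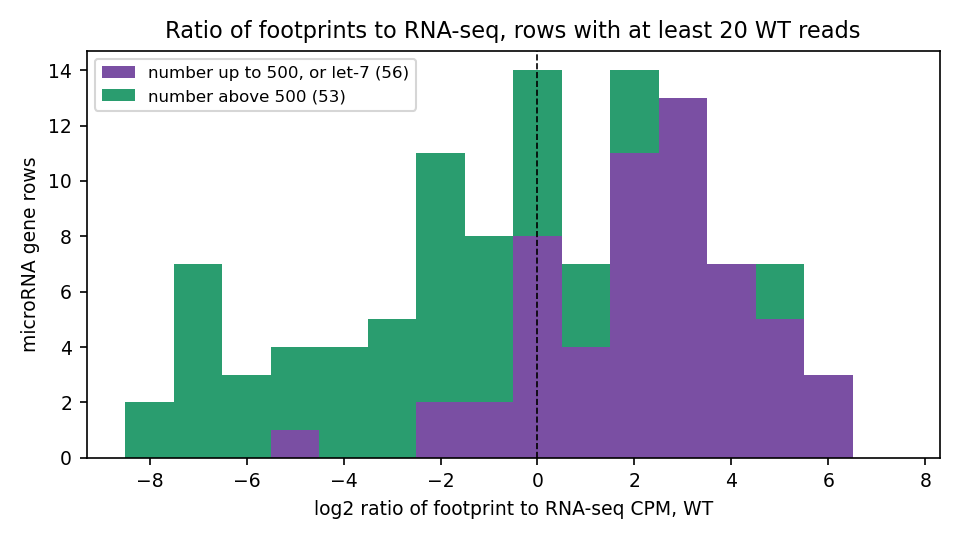
Number of microRNA gene rows (vertical) by log2 ratio of footprint to RNA-seq CPM in WT (horizontal), for the 109 rows with at least 20 WT reads. Colours separate the 56 rows with a number up to 500 or let-7, most of them right of the dashed line at 0, from the 53 rows with a higher number, most of them left of it.

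Few of the 233 rows had enough reads to be tested between genotypes: 30 in RNA-seq, 47 in footprints, 10 in both, and 166 in neither. In RNA-seq 2 of 30 rows were called at an adjusted p under 0.05, both higher in KO, against a background of 6.91% of all 13652 genes tested, or 3.48% for the higher ones alone. In footprints 4 of 47 rows were called, 3 higher and 1 lower in KO, against a background of 17.6% of 13509 genes, or 9.25% for the higher ones alone. The share of all calls was near or below its background in each assay. The median log2 fold change was 0.21 over the 30 rows and 0.00 over all genes in RNA-seq, and -0.06 and -0.01 in footprints. The libraries of the genotypes did not overlap for 8 of the 30 rows in RNA-seq, where the background was 30.9%, and for 9 of the 47 in footprints, where it was 38.1%. With the replicate block no row was called in either assay, against 0.806% and 3.02% of all genes.

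**Figure D4:**
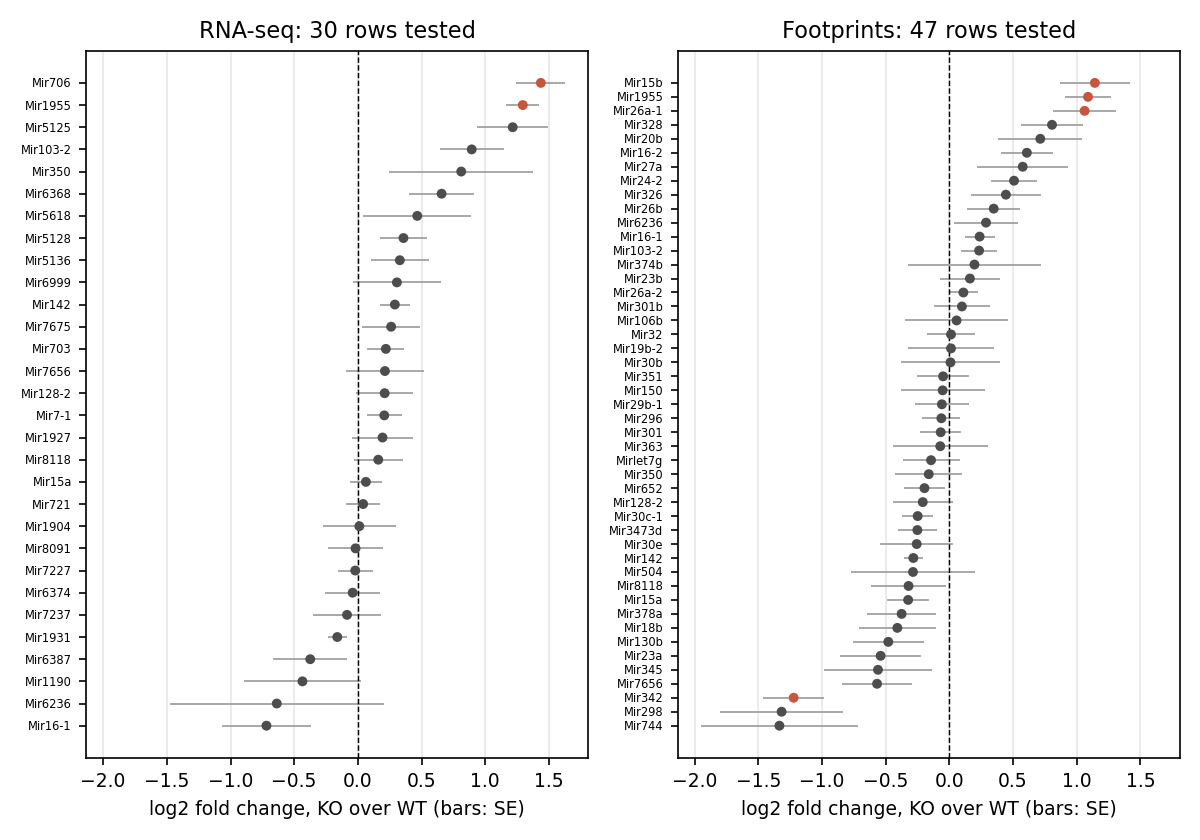
Log2 fold change of KO over WT (horizontal) for the 30 microRNA gene rows tested in RNA-seq and the 47 tested in footprints, with bars of 1 SE. Red points are the 2 and 4 rows with an adjusted p under 0.05 in edgeR's test without the replicate block.

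Mir1955, inside the chromatin regulator gene Phf21a, was the row called in both assays. Its RNA-seq level was 2.22, 2.502 and 2.06 CPM in WT and 5.54, 5.19 and 5.84 CPM in KO. Every KO library exceeded every WT library by more than the spread within either group, and the log2 fold change was 1.30 (SE 0.13, edgeR adjusted p 0.00545, and 0.121 with the block). In footprints it had 0.571, 0.670 and 0.662 CPM in WT and 1.48, 1.30 and 1.22 CPM in KO, again with no overlap, a log2 fold change of 1.09 (SE 0.18, edgeR adjusted p 0.0166, and 0.286 with the block). These values rest on 47 and 107 RNA-seq reads and on 29 and 41 footprint reads in WT and KO. Omitting single libraries kept the RNA-seq call each time, with adjusted p values of 0.0230 to 0.0358 in edgeR, and left the footprint call in 3 of 6 cases. DESeq2 gave no adjusted p for the footprint row. Phf21a was not called, at 125 ± 5.95 CPM in WT against 140 ± 6.55 CPM in KO RNA-seq (SD, n = 3, edgeR adjusted p 0.181) and at 44.7 ± 2.25 and 43.7 ± 2.41 CPM in footprints.

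Mir706, in the kinase gene Wnk1, had 4, 4 and 5 RNA-seq reads in WT and 11, 8 and 14 in KO, or 0.634, 0.556 and 0.686 CPM against 1.60, 1.89 and 1.74 CPM. The groups did not overlap, and the log2 fold change was 1.44 (SE 0.19, edgeR adjusted p 0.0290). The call was lost with DESeq2 (adjusted p 0.341), with the block (0.288) and without any single library (edgeR adjusted p 0.0704 to 0.106). In footprints Mir706 had 1 read in all.

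Mir15b, in Smc4, had 1.09, 1.34 and 0.662 CPM in WT footprints and 2.499, 2.01 and 3.43 CPM in KO. The KO libraries lay above the WT ones, with a log2 fold change of 1.14 (SE 0.28, edgeR adjusted p 0.0358, and 0.182 with the block). It was also called by DESeq2 (adjusted p 0.0487). In RNA-seq, where it was below the minimum for testing, it had 1.06 ± 0.342 CPM in WT against 1.74 ± 0.570 CPM in KO (SD, n = 3), with overlap. Smc4, a condensin subunit of dividing cells, had 553 ± 52.4 CPM in WT against 721 ± 60.2 CPM in KO RNA-seq (log2 fold change 0.38, SE 0.09, edgeR adjusted p 0.0631) and was not called in footprints (0.10, SE 0.07, edgeR adjusted p 0.389).

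Mir26a-1, in Ctdspl, had 0.685, 0.447 and 0.756 CPM in WT footprints and 1.11, 1.43 and 1.22 CPM in KO, without overlap. The log2 fold change was 1.06 (SE 0.25, edgeR adjusted p 0.0322, and 0.331 with the block) on 28 and 39 reads. Its copy Mir26a-2, with the same mature sequence and 1740 footprint reads, was not called (0.11, SE 0.12, edgeR adjusted p 0.566). Reads that fitted both copies alike are in neither count, and how they divided between the copies is not known.

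Mir342, in the actin regulator gene Evl, was the row called lower in KO. It had 1.09, 1.00 and 1.23 CPM in WT footprints and 0.463, 0.519 and 0.245 CPM in KO, without overlap, a log2 fold change of -1.22 (SE 0.24, edgeR adjusted p 0.0224, and 0.282 with the block). Evl was lower in KO RNA-seq, at 63.4 ± 4.77 CPM in WT against 44.4 ± 3.84 CPM in KO (SD, n = 3), a log2 fold change of -0.52 (SE 0.09, edgeR adjusted p 0.0262, and 0.204 with the block), and at 67.8 ± 6.61 and 70.7 ± 7.03 CPM in footprints. Mir342 itself had 6 RNA-seq reads in WT and 9 in KO. Mir15b, Mir26a-1 and Mir342 each lost their call without any 1 of the 6 footprint libraries, with edgeR adjusted p values of 0.0512 to 0.183, and Mir26a-1 also lost it in the joint fit of the 12 libraries (0.0758). For Mir26a-1 and Mir342 DESeq2 gave no adjusted p.

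**Figure D5:**
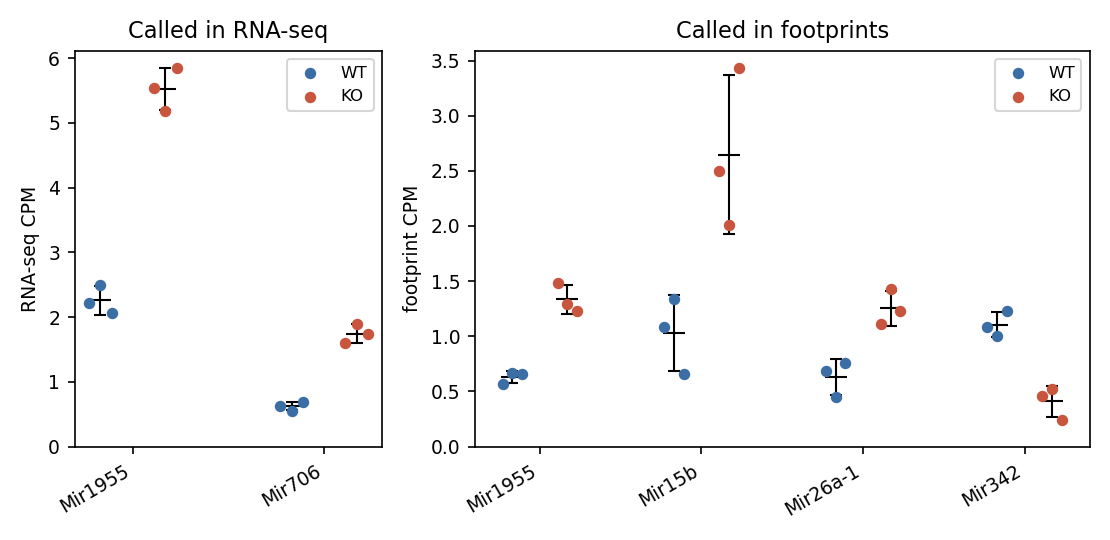
CPM (vertical, linear from 0) of the 2 rows called in RNA-seq and the 4 called in footprints. Points are the 3 libraries of each genotype, horizontal bars the means and error bars the SD. In each panel the WT and KO libraries of a row do not overlap, and Mir342 is the row with the lower KO libraries.

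Other rows with large fold changes did not pass the test. In RNA-seq these were Mir5125, in Srrm2, at 1.22 (SE 0.28, edgeR adjusted p 0.0539), Mir103-2 at 0.89 (SE 0.25, 0.0882), Mir350 at 0.81 (SE 0.56, 0.441), Mir16-1 at -0.72 (SE 0.35, 0.277), Mir6236 at -0.64 (SE 0.84, 0.701), Mir1190 at -0.44 (SE 0.46, 0.619) and Mir6387 at -0.37 (SE 0.29, 0.565). Single libraries moved 5 of these values by more than 1.5 times. Mir350 was at 0.39 without WT replicate 2 and also without KO replicate 2, and at 1.23 without WT replicate 3. Mir16-1 was at -0.44 without WT replicate 3 and at -0.38 without KO replicate 3. Mir6236 was at -0.39 and -0.97 without WT replicates 1 and 2, and at -1.60 and 0.09 without KO replicates 2 and 3. Mir1190 ranged from -0.87 without KO replicate 2 to -0.15 without KO replicate 3, and Mir6387 from -0.60 to -0.18 without the same 2 libraries. Mir5125 was called in the joint fit (adjusted p 0.0212) and without the count filter (0.0462), and over all alternatives its adjusted p was 0.0212 to 0.378. Mir103-2 was called in the joint fit alone (0.0370, with a highest value of 0.541). In footprints Mir328 had a log2 fold change of 0.81 (SE 0.24, edgeR adjusted p 0.0669), Mir744 one of -1.33 (SE 0.62, 0.190), Mir298 one of -1.32 (SE 0.48, 0.113) and Mir345 one of -0.56 (SE 0.43, 0.413). For Mir744 and Mir298 the KO replicate 3 library, at 1.96 and 1.47 CPM, lay above all WT libraries, while KO replicates 1 and 2 lay below them. Without that library Mir298 was at -1.84 and called (edgeR adjusted p 0.0330), and Mir744 was at -2.04 (0.0561). Without KO replicate 2 Mir744 was at -0.71. Mir345 was at -1.08 without KO replicate 1, -0.06 without KO replicate 2 and -0.26 without WT replicate 2.

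The change in footprints beyond that in RNA could be tested for 10 rows, and none was called by edgeR's interaction test, against 0.211% of 11854 genes. At an unadjusted p under 0.05 there were 2, Mir142 and Mir16-1, against a background of 14% of genes, and DESeq2 also called none. With a replicate block none was called either, against 0.0169% of genes with blocks within each assay and 0.143% with blocks by replicate number across the assays. Mir16-1 had an interaction of 0.95 (SE 0.41, edgeR adjusted p 0.318). Mir1955, called in both assays, had one of -0.21 (SE 0.26, edgeR adjusted p 0.882). The remaining 7 rows ranged from -0.97 for Mir350 to 0.93 for Mir6236, with Mir7656 at -0.77 (SE 0.43, edgeR adjusted p 0.449) and Mir8118 at -0.48 (SE 0.38, edgeR adjusted p 0.695). Mir6236 was at 1.89 without RNA-seq KO replicate 2 and at 0.19 without RNA-seq KO replicate 3. Mir350 was at -0.54 without RNA-seq WT replicate 2 and at -0.56 without RNA-seq KO replicate 2, Mir16-1 at 0.60 without RNA-seq KO replicate 3, and Mir8118 at -0.88 to -0.28 without single footprint libraries.

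Of 13 genes that make microRNAs or carry out silencing, 12 had enough reads. In each assay 1 of the 12 was called, against 6.91% of all genes in RNA-seq and 17.6% in footprints, and in both it was Tnrc6b, a scaffold protein that joins Argonaute to the deadenylases. It had 870 ± 16.1 CPM in WT against 1030 ± 15.9 CPM in KO RNA-seq (SD, n = 3), a log2 fold change of 0.24 (SE 0.05, edgeR adjusted p 0.0347, and 0.589 with the block). In footprints it had 172 ± 5.24 and 208 ± 5.84 CPM, a log2 fold change of 0.27 (SE 0.04, edgeR adjusted p 0.00680, and 0.131 with the block). Drosha, Dicer1 and Ago2 were not called, with log2 fold changes in RNA-seq of 0.07 (SE 0.08), 0.04 (SE 0.05) and -0.01 (SE 0.08). Over the 12 genes the median log2 fold change was 0.05 in RNA-seq and 0.01 in footprints.

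For 2 lists of markers of other cells the levels of the genotypes did not overlap. Non-overlap was common, found for 30.9% of all single genes tested in RNA-seq and 38.1% in footprints. The summed level of 4 thymic epithelial mRNAs was 74.6 to 81.0 CPM in WT and 58.9 to 68.6 CPM in KO footprints, and 18.7 to 21.4 CPM against 13.9 to 16.5 CPM in RNA-seq. That of 3 red cell mRNAs was 52.2 to 60.3 CPM in WT and 37.3 to 43.9 CPM in KO RNA-seq, with overlap in footprints. B cell and myeloid markers overlapped, at most 23.4 and 148.5 CPM. No listed marker gene was at 0 in a whole group. Their part in the differences between genotypes was not tested. In these samples of many cells, fewer cells of a type and less RNA per cell cannot be told apart.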

How the data were processed

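The authors deposited read counts (integers) for Ensembl genes, in 1 table of 6 RNA-seq and 1 of 6 footprint libraries, and called them adjusted. No source used here gives what was adjusted, the genome build, the annotation or the strand setting. FastQC, Bowtie2 2.5.1, STAR 2.7.10a, HTSeq 2.0.3 and DESeq2 1.40.2 are listed per the submitters' processing notes, without roles. RNA-seq libraries had 27.0% to 28.5% of counted reads in genes and 50.9% to 57.1% in no feature, footprint libraries 72.3% to 73.1% and 5.32% to 6.39%. These rows that name no gene were left out. Symbols were matched for 54587 IDs by versioned and 567 by unversioned ID, and 181 had none. The deposited comparison tables, with 12 columns of library values, were not used.

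Each assay was fitted over all genes with edgeR 4.0.16 in R 4.3.3 (TMM, filterByExpr with a minimum count of 10, quasi-likelihood test of KO against WT, Benjamini-Hochberg adjustment, threshold 0.05). The change beyond RNA was the interaction of genotype and assay over 12 libraries, with TMM factors within each assay. The fits were also run on simulated counts drawn independently for each library. Such counts hold no link between same-numbered libraries, so they cannot show whether the adjusted p values without the block are too small. CPM is relative to the TMM-scaled total of reads in genes, and the SE is the log2 fold change divided by the square root of F. Alternatives were RLE factors, DESeq2 1.42.0, a minimum count of 3 or none, a threshold of 0.1, a joint fit, the replicate block and the omission of each library. The labels name 3 mice per genotype.

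Sequences, positions and hosts are those of RefSeq (GRCm38.p6), matched by symbol, with 231 of 233 rows found.

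The rows, lists and tests were chosen with earlier results of these data known. Rows named were taken from the 8 highest per assay, all called, the 5 largest changes each way per fit, the 5 highest and lowest ratios and those of 3 lists (miR-17 clusters, let-7, lymphocytes). Others named were chosen after their values were seen: Mir142b, Mir143, Mir145a, Mir146, Mir200a, Mir200b, Mir200c, Mir203, Mir322, Mir451a, Mir652, Mir98, Mir99a, Mir125b-2 and Mir3062.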

Additional observations from a re-analysis of the deposited data

Results flagged for a closer look

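Mir7-1, a copy of the miR-7 gene inside Hnrnpk, lay on opposite sides in the 2 assays. It was picked for this pattern after all 233 rows were searched for it. Among all genes tested, the genotypes did not overlap, in either direction, for 30.9% in RNA-seq and 38.1% in footprints. The share of genes with opposite directions in the 2 assays was not computed. In RNA-seq it had 3.33, 4.03 and 4.12 CPM in WT and 4.81, 4.25 and 4.23 CPM in KO, all KO libraries being higher, and in footprints 0.685, 0.670 and 0.946 CPM in WT and 0.648, 0.583 and 0 CPM in KO, all KO libraries being lower. The log2 ratio of the mean KO to the mean WT CPM in footprints minus that in RNA-seq was -1.1131. This difference was not tested in the fit of the report, where Mir7-1 had too few footprint reads. Without the count filter edgeR's interaction was -0.70 (SE 0.46) with an adjusted p of 0.637. The 0 in KO replicate 3 of footprints comes from the shallowest library.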

How the results depend on the processing

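Calls of microRNA rows rested on few reads and on the omission of the replicate number from the fit. The correlations given in the report, -0.979 to -0.992, were those of WT and KO libraries with the same number. Libraries of the 2 genotypes with different numbers had correlations of 0.18 to 0.708. The number thus linked a WT and a KO library in each assay, and whether it pairs mice is not known. Adjusted p values without the block may be too small, which was not tested. With the replicate block 0 rows were called in RNA-seq and 0 in footprints, against 2 and 4 without it, and 0 for the interaction with either kind of block. DESeq2 called 1 row in RNA-seq and 2 in footprints, Mir15b and Mir142, of which Mir142 was not called by edgeR, an adjusted p under 0.1 gave 4 and 7, the joint fit gave 4 in RNA-seq, and testing without the count filter gave 7 in footprints. Leaving out 1 library at a time gave 1 in RNA-seq each time, 0 to 2 in footprints and 0 for the interaction. The sign of the log2 fold change turned without 1 library for Mir128-2 (-0.3389 to 0.0052) and Mir30b (-0.38 to 0.38) in footprints. In RNA-seq it turned for Mir15a (-0.0045 to 0.1293), Mir1927 (-0.0006 to 0.3681), Mir6236 (-1.6046 to 0.0879) and Mir7656 (-0.003 to 0.4607). The median log2 ratio was -0.33 at a minimum of 10 reads and 2.10 at 50, and without single WT libraries it was -0.17 to 0.25. The causes were not tested. A minimum sum of 5 or 20 gives 321 or 161 rows in place of 233.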

Other observations

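Mir3062, inside Pfas, was too sparse to be tested and was chosen after its values were seen. It had 7, 5 and 6 RNA-seq reads in WT and 1, 1 and 2 in KO, and 5, 4 and 3 footprint reads in WT and 0, 1 and 0 in KO. Of the microRNAs of Mir99ahg, Mir125b-2 had 9 footprint reads, all from KO replicate 1.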
